A study of Homo sapiens with 2 samples.

Results

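Of the 33297 probe sets in the deposited table, 11234 (33.7%) carried no gene symbol, and these are described here. They were chosen by the symbol column alone, as rows in which it was empty (4428) or held only dashes (6806), a rule that reads no measured value. The arrays were hybridised with biotin-labelled RNA from AGS, a human cell line established from a gastric adenocarcinoma. For the LBH589 array the cells had been exposed to 100 nM LBH589 over 24 h, and for the control array the treatment is labelled as none, with no vehicle or culture time given. LBH589 is panobinostat, an inhibitor of histone deacetylases of several classes. There was 1 array for each condition, so no difference below has an error, a test or a p-value. A probe set is called higher or lower only from a ratio of at least 2-fold.

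An expression array reads each transcript through a set of short probes, and the symbol column names the gene that such a probe set was designed for. A row without a symbol can belong to a transcript predicted or sequenced but not yet named, to a small RNA such as a microRNA precursor, or to a control feature of the array. Affymetrix arrays are known to carry control probe sets with no gene annotation, and the sources used here do not say which of these rows, if any, are such controls. MicroRNAs are cut from hairpin precursors, which lie in transcripts of their own or inside host genes. The mature strand pairs with target messages mainly through its seed, the bases from position 2 to position 8. An array of this kind reads hairpin or longer precursor RNA at best, and not the mature strand itself.

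The rows fell into kinds by the accession they were listed with, and none of the 11234 had a description, whereas all 22063 rows with a symbol had one. Rows with no accession numbered 4764. Of these, 4428 were blank in all annotation columns and 336 held dashes in all of them. The other 6470 gave an accession. Most of those, 5644, were Ensembl transcripts (prefix ENST), 382 were GenBank sequence records (AK, BC, AF, AY and smaller groups), and 204 were microRNA hairpins (prefix hsa). GENSCAN gene predictions made up 183, a RefSeq genomic record (prefix NC) 31, UCSC gene records (prefix uc) 24 and RefSeq model transcripts (XM and XR) 2. Only the hairpins could be given a gene name from a reference table. No accession of these rows recurred in a row with a symbol, and the RefSeq table paired neither model transcript with a gene.

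The microRNA hairpins whose values are described most closely below have these mature strands, given by RefSeq for GRCh38.p14. They are written from 5′ to 3′ with the seed in capitals, and are shown because hsa-mir-27b and hsa-mir-23b were the hairpins past 2-fold, because hsa-mir-27a and hsa-mir-23a are their paralogues, and because hsa-mir-326 and hsa-mir-21 were among the brightest.
hsa-miR-27b-3p: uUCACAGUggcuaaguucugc
hsa-miR-27a-3p: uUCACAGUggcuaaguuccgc
hsa-miR-23b-3p: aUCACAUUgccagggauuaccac
hsa-miR-23a-3p: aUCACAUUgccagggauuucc
hsa-miR-27b-5p: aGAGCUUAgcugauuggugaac
hsa-miR-23b-5p: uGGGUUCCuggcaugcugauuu
hsa-miR-21-5p: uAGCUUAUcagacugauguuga
hsa-miR-326: cCUCUGGGcccuuccuccag

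The -3p strands of the 27a and 27b hairpins share the seed UCACAGU, and those of the 23a and 23b hairpins share the seed UCACAUU. The 23b and 27b hairpins, of 97 bases each, are shown with both mature strands in capitals, since these are the sequences behind the names in the table. In GRCh38.p14 they lie on the plus strand, inside the gene AOPEP, at chr9:95085208-95085304 and chr9:95085445-95085541. The RefSeq table has gene spans only, so exon or intron is not given.
hsa-mir-23b: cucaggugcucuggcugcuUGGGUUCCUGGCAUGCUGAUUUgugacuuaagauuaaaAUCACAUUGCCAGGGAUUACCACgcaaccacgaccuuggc
hsa-mir-27b: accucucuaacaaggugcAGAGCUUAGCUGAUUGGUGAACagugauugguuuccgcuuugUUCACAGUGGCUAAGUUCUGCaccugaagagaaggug

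Intensities were on a linear scale. The median over all probe sets was 4.84 on the control array and 4.77 on the LBH589 array. A floor of 2.95, percentile 20 over both arrays, replaced lower values, and a probe set was taken as detected if at least 1 array reached the floor. Percentile 95 of 456 olfactory receptor probe sets, sensory genes without a known use in gastric cells, was 4.63 and is called background. A probe set below background on its dimmer array has only a bound for its fold, written as "at least", which sets the brighter intensity against background. Of the markers of a gastric epithelial line, 9 of 9 were above background, from KRT7 at 7.94 to KRT8 at 1967 in control cells. Of 4 endothelial markers none was, and of 6 fibroblast markers only COL1A1 was. The immune marker LYZ, a lysozyme, was above background at 706 and 451, and PTPRC, the common leukocyte antigen, was below it at 2.76 and 2.95.

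Probe sets without a symbol were dimmer than those with one, and a smaller share of them was 2-fold higher with LBH589. Their median intensity was 3.39 on the control array and 3.28 on the LBH589 array, beside 6.71 and 6.77 for probe sets with a symbol. Of 11234, 8048 (71.6%) were detected and 4177 (37.2%) exceeded background on at least 1 array, beside 92.4% and 63.4% of those with a symbol. Among the 8048 detected, 157 (1.95%) were 2-fold higher with LBH589, where 3.96% of all detected probe sets and 4.76% of those with a symbol were. At the same time 392 (4.87%) were 2-fold lower, where 4.75% of all and 4.70% of those with a symbol were. Their median log2 ratio was -0.04, beside -0.01 over all detected probe sets. The share lower, pooled over all signal levels, was thus close to that of the whole array, and the pooled share higher was below it. By level the comparison differed. At a geometric mean of both arrays from background to 16, 12.7% were lower and 4.56% higher, beside 4.33% and 4.45% with a symbol. From 16 to 128, 8.02% were lower and 3.70% higher, beside 9.64% and 9.42%. At 128 and over, 5.83% were lower and 2.72% higher, beside 7.30% and 8.55%. Of the 549 calls, 209 had a dimmer array below background, and 106 of the higher and 234 of the lower ones had both arrays above it. These were among 3271 rows without a symbol above background on both arrays. Over the whole array 971 were higher and 1135 lower among 15944 such probe sets.

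Nearly all of these calls came from rows with no accession. Of 4090 such rows detected, 138 were higher and 366 lower. Of 3958 detected rows with an accession, 19 (0.480%) were higher and 26 (0.657%) lower, beside the 3.96% and 4.75% of the whole array.

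**Figure D1:**
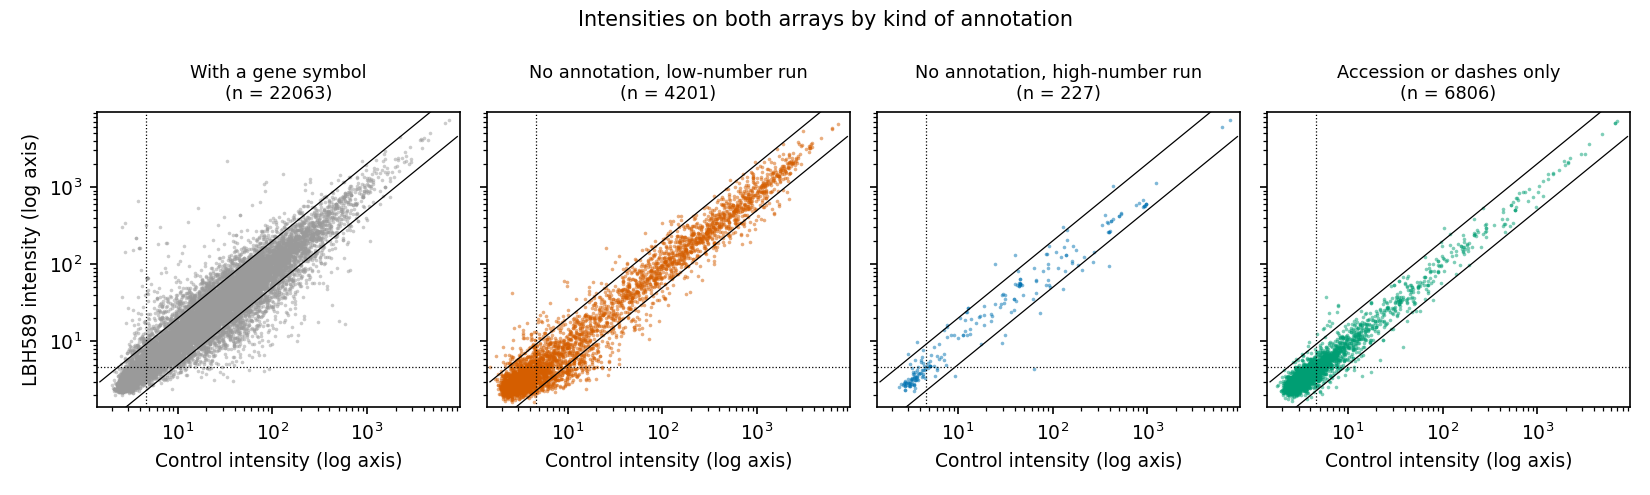
Intensity of each probe set on the control array (horizontal, log axis) and the LBH589 array (vertical, log axis), 1 point per probe set, in panels by kind of annotation. Solid lines mark 2-fold and dotted lines background at 4.63. In the panel of the low-number run, points beyond the lower 2-fold line outnumber those beyond the upper one by 357 to 127, while in the panel with a gene symbol 958 lie beyond the lower and 970 beyond the upper line.

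The 4428 rows blank in all columns fell into 2 runs of probe set numbers in which no other row lay. The low-number run, from 7892501 to 7896730, held 4201 rows, and the high-number run, from 8180192 to 8180418, held 227. The low-number run spanned the whole range of signal. Its control intensities had a median of 7.27 and a highest value of 7170, its LBH589 intensities had a median of 5.97 and a highest value of 6592, and 193 rows had a mean above 1000.

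In the low-number run, lower calls outnumbered higher ones. Of 3697 detected rows, 357 (9.66%) were 2-fold lower with LBH589 and 127 (3.44%) 2-fold higher, beside 4.75% and 3.96% over the whole array. The log2 ratio had a median of -0.14, with quartiles of -0.48 and 0.19, and was below 0 in 2290 rows and above 0 in 1402. At 4-fold or more, 32 rows were lower and 12 higher, and the share of the whole array at that size is not given here. With the run split in number order into 4 stretches of like size, the share lower was 10.7%, 8.32%, 10.5% and 9.07%, and the share higher was 3.15%, 3.63%, 3.90% and 3.06%. Lower calls therefore outnumbered higher ones in each stretch. The stretches were read on the same arrays and are not separate evidence for the difference.

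The difference between directions varied with signal level, taken as the geometric mean of both arrays. From background to 16, 201 of 892 rows (22.5%) were lower and 60 (6.73%) higher, and the median log2 ratio was -0.26. Probe sets with a symbol at that level were 4.33% lower and 4.45% higher, with a median of 0.00. In 112 of the 201 lower rows the LBH589 array was below background, and in 32 of the 60 higher rows the control array was.

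At brighter levels the run held shares lower close to those of the probe sets with a symbol, and smaller shares higher. From 16 to 128, 67 of 689 rows (9.72%) were lower and 32 (4.64%) higher, beside 9.64% and 9.42% with a symbol. At 128 and over, 57 of 889 (6.41%) were lower and 22 (2.47%) higher, beside 7.30% and 8.55% with a symbol. Between the floor and background, 32 of 946 rows (3.38%) were lower and 13 (1.37%) higher, beside 0.0321% and 0.0642% with a symbol. At that level every call had its dimmer array below background, so its fold is only a bound. Lower calls outnumbered higher ones at each of the 3 levels above background, by the widest margin from background to 16. With 50 added to each intensity, 44 of 3697 detected rows of the run (1.19%) were lower and 14 (0.379%) higher. With a symbol, 149 of 20392 (0.731%) were lower and 158 (0.775%) higher. With a floor of 16, 120 of 1700 detected rows of the run (7.06%) were lower and 54 (3.18%) higher. With a symbol, 651 of 8363 (7.78%) were lower and 669 higher. At that floor the run therefore had no larger share lower than probe sets with a symbol, and a smaller share higher.

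**Figure D2:**
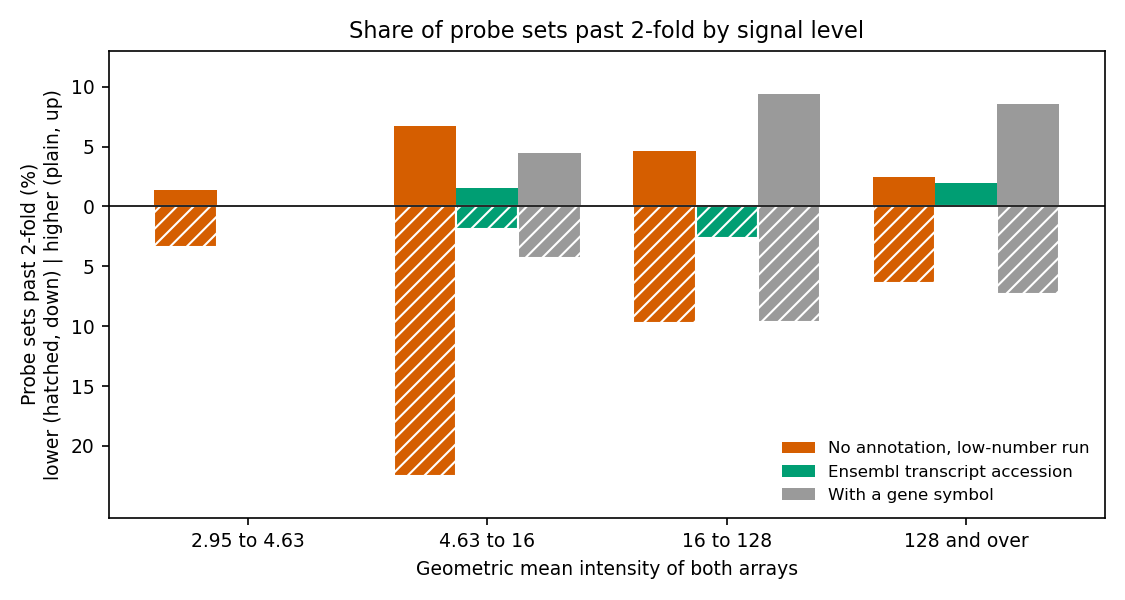
Share of probe sets 2-fold higher (plain bars, upward) and 2-fold lower (hatched bars, downward) in percent, by geometric mean intensity of both arrays, for the low-number run, Ensembl transcripts without a symbol and probe sets with a symbol. The downward bar of the low-number run reaches 22.5% from 4.63 to 16, where its upward bar reaches 6.73%.

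**Figure D3:**
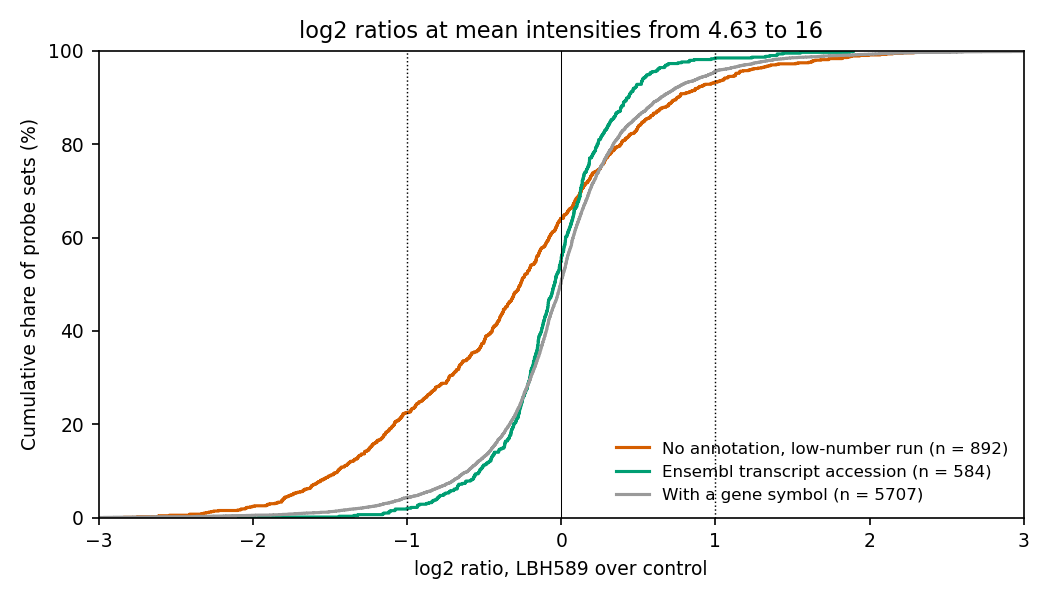
Cumulative share of probe sets in percent against the log2 ratio of LBH589 over control, for mean intensities from 4.63 to 16, with dotted lines at 2-fold. The curve of the 892 rows of the low-number run lies left of the other curves below a ratio of 0 and crosses -1 at 22.5%, where that of the 584 Ensembl transcripts is at 1.88% and that of the 5707 probe sets with a symbol at 4.33%.

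The largest changes among rows without an accession were mostly in the low-number run. Probe set 7896712 had 2.58 on the control array and 42.6 on the LBH589 array, at least 9.19-fold higher. Probe set 7894708 had 25 and 161, 6.43-fold higher, and probe set 7894882 had 9.12 and 60.7, 6.65-fold higher. Probe set 7896695 had 9.82 and 59.0, 6.01-fold higher. All 4 were above background on the LBH589 array, and only 7896712 was below it on the control array. In the other direction, probe set 7895963 had 71.8 and 10.8, 6.66-fold lower, and probe set 7892535 had 34.3 and 5.11, 6.72-fold lower. Probe sets 7894627 (26.3 and 3.69) and 7892732 (19.9 and 3.24) were at least 5.67-fold and 4.29-fold lower, and fell below background with LBH589. With 50 added to each intensity, 7894708 alone of these 8 rows stayed clearly past 2-fold, with a log2 ratio of 1.49. Probe set 7895963 was at -1.0, and the other 6 lay between -0.61 and 0.90.

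The high-number run was brighter, and its calls were even in both directions. Its median intensity was 12.7 on the control array and 16.2 on the LBH589 array. Of 215 detected rows, 9 (4.19%) were higher and 9 (4.19%) lower, near the 3.96% and 4.75% of the whole array, and the median log2 ratio was -0.04. The largest decrease of any row without a symbol was here. Probe set 8180400 had 63.5 and 4.41, at least 13.7-fold lower, and kept a log2 ratio of -1.06 with 50 added. Probe set 8180349 had 395 and 95.8, 4.12-fold lower, and probe set 8180405 had 24.7 and 101, 4.10-fold higher. Probe set 8180371 had 441 and 1027, 2.33-fold higher. The last 3 were chosen as examples after their values were seen. Probe sets 8180202 and 8180258 had identical intensities, 12.7 and 27.2, and count as 2 of the 9 higher rows. The brightest row without a symbol, probe set 8180192, had 7427 and 7375, and probe set 8180193 had 6163 and 5945. The brightest of the low-number run, 7894970, had 7170 and 6592. None of these 3 was past 2-fold.

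Rows with dashes in every column were mostly dim, with 41 of 336 above background. Of 178 detected, 2 (1.12%) were higher and none lower, beside 3.96% and 4.75% of the whole array. Both higher rows were among the 22 with a mean intensity from background to 16 (9.09%, beside 4.45% with a symbol). Probe set 7942061 had 5.85 and 37.6, 6.42-fold higher, the largest increase of any row that was not blank. With 50 added its log2 ratio was 0.65. The other higher row, 8028002, had 3.28 and 6.96, at least 1.5-fold higher against background.

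Ensembl transcripts without a symbol were dim, and few passed 2-fold. Their median intensity was 2.95 on the control array and 2.93 on the LBH589 array, and 932 of 5644 (16.5%) exceeded background. Of 3299 detected, 11 (0.333%) were higher and 18 (0.546%) lower, beside 3.96% and 4.75% of the whole array. The share stayed low in brighter rows too. From background to 16, 9 of 584 (1.54%) were higher and 11 (1.88%) lower, where 8 and 6 of 232 Ensembl transcripts that did carry a symbol were (3.45% and 2.59%). From 16 to 128, none of 152 was higher and 4 (2.63%) were lower, where 13 and 4 of 86 with a symbol were (15.1% and 4.65%).

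The largest increase among Ensembl transcripts was measured by a pair of probe sets. ENST00000384476 had 7.89 and 29.4 on probe set 7919560, 3.72-fold higher, and 7.82 and 28.6 on probe set 7919556, 3.66-fold higher. Both probe sets share the accession, and their intensities differed by a factor of 1.02, so they are not separate evidence. ENST00000326517 was the only bright transcript among the increases, with 104 and 299, 2.86-fold higher, and kept a log2 ratio of 1.18 with 50 added. ENST00000390893 (6.28 and 18.4) was 2.93-fold higher, and ENST00000309775 (5.99 and 16.2) was 2.71-fold higher. ENST00000365207, whose probe set number 8017098 follows that of ENST00000390893, 8017096, had 5.50 and 14.5 and was 2.64-fold higher, an example chosen after its values were seen.

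Among the decreases, ENST00000386007 had 38.3 and 8.42, 4.55-fold lower. It stayed past 2-fold with a floor of 16, at a log2 ratio of -1.26, and not with 50 added, at -0.60. ENST00000363299 (17.4 and 4.08) was at least 3.76-fold lower, ENST00000387564 (11.6 and 4.26) at least 2.49-fold and ENST00000363849 (9.27 and 3.65) at least 2.0-fold. ENST00000364003 had 11.7 and 4.68 and was 2.49-fold lower. The last 4 had control intensities under 18 and were within 2-fold with a floor of 16 or with 50 added. The brightest Ensembl transcripts were within 2-fold. ENST00000388110 had 4894 and 4828, ENST00000383937 had 3218 and 2704, and ENST00000320713 had 2211 and 2375.

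MicroRNA hairpins were mostly below background. Of 204 hairpin probe sets, with 202 distinct names, 158 were below background on both arrays and 46 above it on at least 1. Of these 46, 33 had a log2 ratio below 0 and 13 above 0, with a median of -0.15, beside -0.02 over all probe sets above background. These include 9 hairpins that exceeded background on the control array only and 3 on the LBH589 array only, whose direction follows from that. Of the 34 above background on both arrays, 24 had a log2 ratio below 0 and 10 above 0, with a median of -0.11, beside -0.02 over all such probe sets. Past 2-fold were 2 of 133 detected hairpins, both lower (1.5%, beside 4.75% of the whole array), and none was higher. By mean intensity, 1 of 32 was lower from background to 16 and 1 of 7 from 16 to 128, beside 4.33% and 9.64% with a symbol. In the RefSeq table, 142 hairpin probe sets were matched by name and 62 were not, and the unmatched ones are given by the table's name only.

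The hairpins past 2-fold were neighbours. hsa-mir-27b had 22.0 on the control array and 5.73 on the LBH589 array, 3.84-fold lower, the largest change among the hairpins. hsa-mir-23b had 30.1 and 14.6, 2.05-fold lower. Both arrays were above background for each. The third hairpin of this cluster on chromosome 9, hsa-mir-24-1, was below background on both arrays, at 3.01 and 2.87, so its change was not measured. In the paralogous cluster on chromosome 19, hsa-mir-23a had 5.46 and 5.32, while hsa-mir-27a (4.12 and 4.20) and hsa-mir-24-2 (3.47 and 3.18) were below background. For the shared seeds UCACAGU and UCACAUU, the hairpins on chromosome 9 were thus past 2-fold lower with LBH589. Of those on chromosome 19, hsa-mir-23a was within 2-fold and the change of hsa-mir-27a was not measured. With 50 added, the log2 ratios of hsa-mir-27b and hsa-mir-23b were -0.37 and -0.31, and with a floor of 16 they were -0.46 and -0.91, all short of 2-fold.

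Other hairpins stayed within 2-fold. hsa-mir-622, which was not matched, was by far the brightest at 2871 and 2681, and hsa-mir-326 followed with 55.4 and 50.2. hsa-mir-21, whose mature strand is abundant in many carcinomas, had 51.6 and 31.5, 1.64-fold lower. The largest increase was that of hsa-mir-492, with 5.0 and 8.43 and a log2 ratio of 0.75. Among let-7 hairpins, a family known for restraining growth genes, hsa-let-7f-1 had 5.10 and 3.28, hsa-let-7a-3 had 5.51 and 3.96, and hsa-let-7d had 5.70 and 4.21, each above background on the control array only. hsa-let-7e (5.15 and 3.96) and hsa-let-7i (5.01 and 4.62) were likewise above it on the control array only, while hsa-let-7b had 6.28 and 5.89 and stayed above background. The remaining let-7 hairpins were below background on both arrays, so their change was not measured. hsa-mir-200c, of a family known to hold epithelial identity, had 5.92 and 3.78, and its neighbour hsa-mir-141 was below background at 3.36 and 3.10. Of the same family, hsa-mir-200b had 4.94 and 4.68, hsa-mir-429 had 4.43 and 4.65, and hsa-mir-200a was below background at 2.98 and 2.68. Apart from the brightest 3, these hairpins were chosen as examples after their values were seen.

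**Figure D4:**
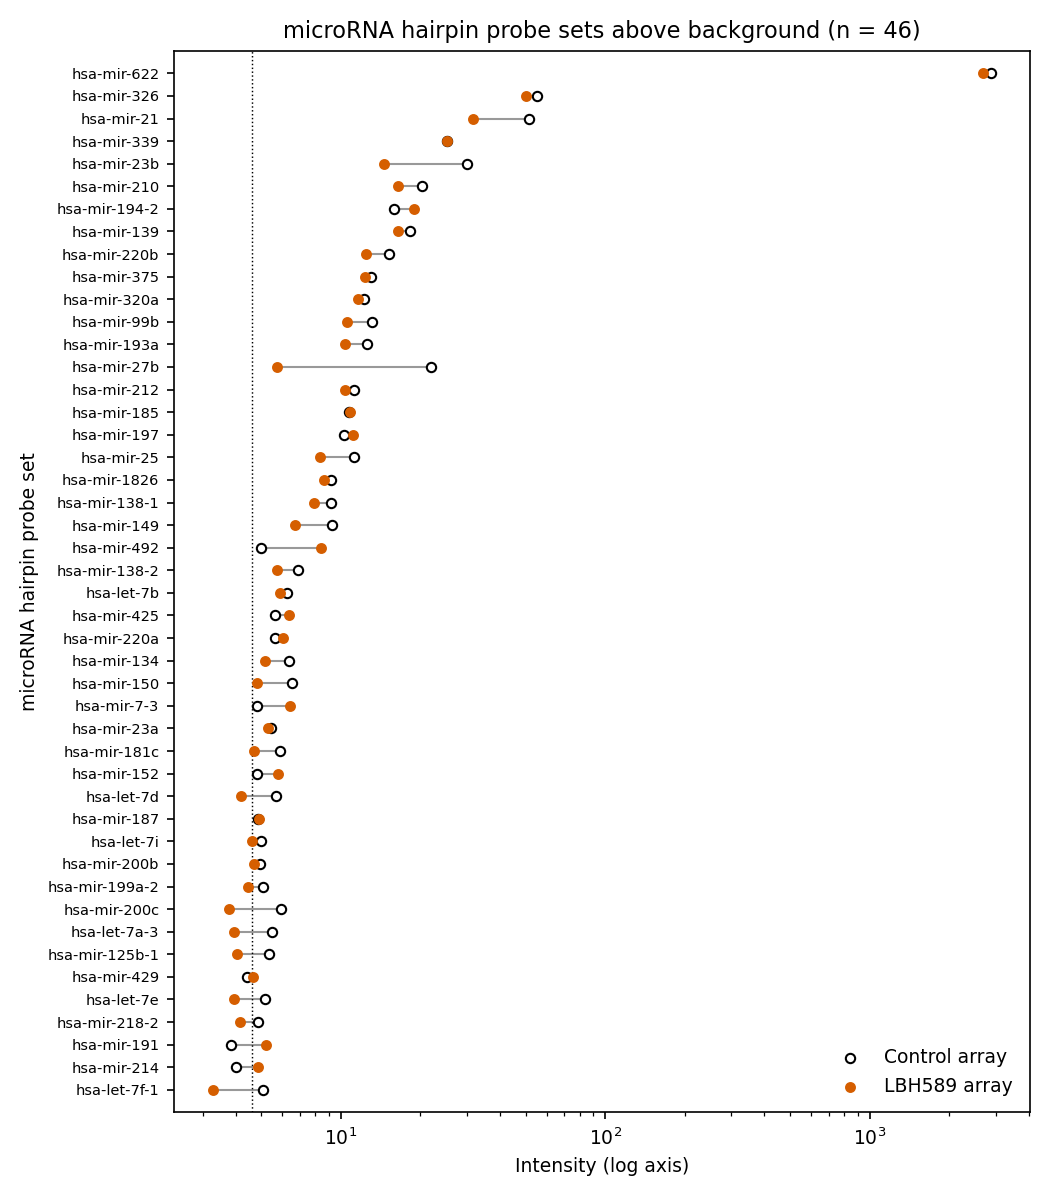
Intensity (log axis) of the 46 microRNA hairpin probe sets above background on at least 1 array, with open circles for the control array, filled circles for the LBH589 array and a dotted line at background, 4.63. hsa-mir-27b (22.0 and 5.73) and hsa-mir-23b (30.1 and 14.6) have the longest lines toward lower values, and hsa-mir-622 stands apart at 2871 and 2681.

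Of the matched hairpins, 73 lay inside a longer RefSeq gene listed on the same strand. Genes for which no strand was available were not used as hosts, so host genes can be missing from these counts. The hairpin and the brightest probe set of its host gene were both above background on at least 1 array in 12 pairs from 10 host genes, where the hairpin and the host are separate probe sets on the array. AOPEP (listed as C9orf3), an aminopeptidase gene that holds the 23b and 27b hairpins, had 8.73 and 8.71. The hairpins were thus 2.05-fold and 3.84-fold lower while the host's probe set differed by a log2 ratio of 0.00. VMP1 (listed as TMEM49), a membrane protein of autophagy, had 400 and 686, 1.71-fold higher, while hsa-mir-21 within it was 1.64-fold lower. MIR7-3HG (listed as C19orf30), a long noncoding host transcript, had 4.07 and 84.8, at least 18.3-fold higher, whereas hsa-mir-7-3 had 4.82 and 6.44.

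The other pairs were within 2-fold for both hairpin and host. MCM7, a subunit of the replicative helicase, had 106 and 61.7 (log2 ratio -0.77), and hsa-mir-25 within it had 11.2 and 8.34 (-0.42). GPC1, a cell-surface proteoglycan, had 41.6 and 29.9 (-0.48), and hsa-mir-149 had 9.30 and 6.71 (-0.47). CHLSN (listed as C7orf50) had 40.3 and 68.8 (0.77), while hsa-mir-339 had 25.2 and 25.3. DALRD3 had 22.2 and 22.8, and its hairpins hsa-mir-425 and hsa-mir-191 had 5.64 and 6.36, and 3.83 and 5.21. GNAI3, a G protein subunit, had 91.0 and 113, and hsa-mir-197 had 10.3 and 11.1. TANGO2 (listed as C22orf25) had 6.58 and 10.2 (log2 ratio 0.64) beside 10.7 and 10.8 for hsa-mir-185, and NANOS3 had 11.7 and 10 beside 5.91 and 4.71 for hsa-mir-181c. Of the 10 host genes, MIR7-3HG was the only one past 2-fold.

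**Figure D5:**
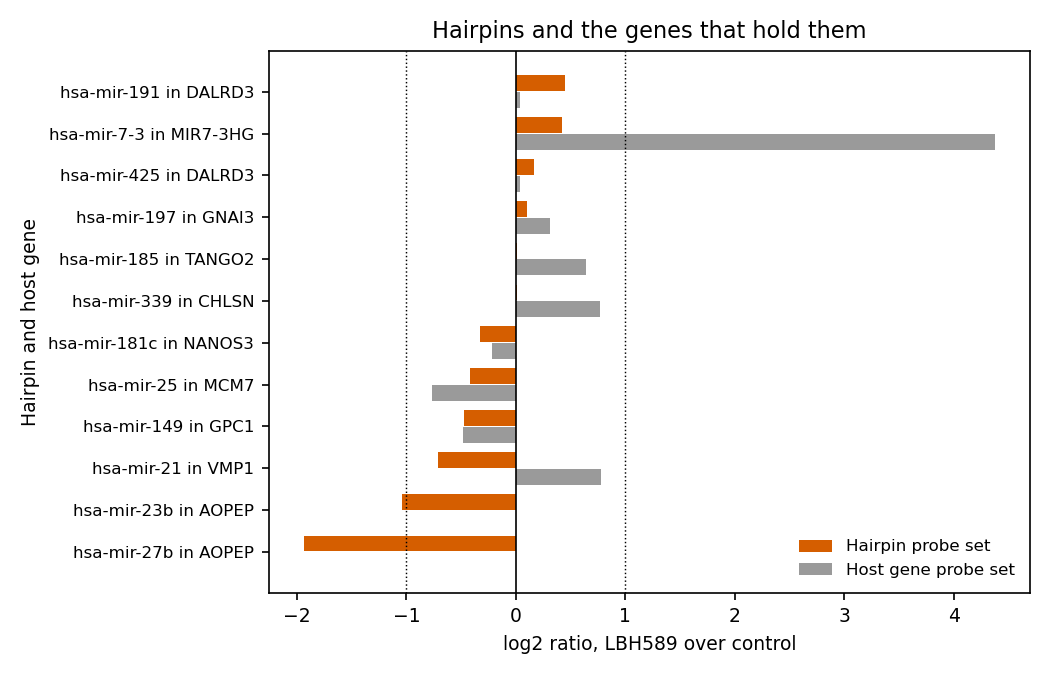
log2 ratio of LBH589 over control for 12 microRNA hairpin probe sets and the host gene each lies in, where both exceeded background, with dotted lines at 2-fold. The AOPEP hairpins are at -1.94 and -1.04 with their host at 0.00, and hsa-mir-21 (-0.71) and VMP1 (0.78) lie on opposite sides.

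GenBank records had 5 of 319 detected rows higher (1.57%) and 1 lower (0.313%), beside 3.96% and 4.75% of the whole array, and all 6 were above background on both arrays. All 5 increases had a mean intensity from background to 16. At that level 5 of 88 records (5.68%) were higher and none lower, beside 4.45% and 4.33% with a symbol. AK289574 had 6.30 and 23.2, 3.68-fold higher, and AK292678 had 7.59 and 24.2, 3.20-fold higher. AY358103 (5.63 and 15.0) was 2.67-fold higher, AY555145 (6.50 and 15.8) was 2.44-fold higher and AK126520 (5.67 and 11.4) was 2.02-fold higher. All 5 increases started below 8 on the control array, and none stayed past 2-fold with a floor of 16 or with 50 added. AY605064 had 78.2 and 34.2, 2.29-fold lower, and stayed past 2-fold with a floor of 16 but not with 50 added, at a log2 ratio of -0.61. The brightest record, AK127374, had 559 and 347, 1.61-fold lower, and BC071638 had 154 and 97.1, 1.59-fold lower. AK127880 had 127 on both arrays. The 80 AF records and the 88 BC records held no row past 2-fold.

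GENSCAN predictions had 1 of 155 detected rows higher (0.645%) and 3 lower (1.94%), beside 3.96% and 4.75% of the whole array. From background to 16, 2 of 37 (5.41%) were lower and none higher, beside 4.33% and 4.45% with a symbol. GENSCAN00000016460 had 95.4 and 194, 2.03-fold higher. GENSCAN00000035213 had 14.2 and 3.58, at least 3.06-fold lower. GENSCAN00000021258 (7.47 and 2.56) and GENSCAN00000044662 (7.76 and 3.52) were at least 1.61-fold and 1.68-fold lower against background. Several predictions were bright, with GENSCAN00000001504 at 1688 and 1666 and GENSCAN00000058744 at 1055 and 1040. GENSCAN00000068831 had 963 and 559, 1.72-fold lower.

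UCSC gene records were few but bright, with a median control intensity of 10.1, and 2 of 20 detected rows were higher and 2 lower (10% each, beside 3.96% and 4.75% of the whole array). The records uc001hte (119 and 248) and uc003jfy (267 and 540) were 2.07-fold and 2.02-fold higher. Both stayed past 2-fold with a floor of 16, and with 50 added they were at 0.81 and 0.90. The lower rows, uc002bxt and uc002byg, had identical intensities, 23.2 and 10.5, 2.20-fold lower, and so are 1 measurement, which leaves 1 lower among 19 distinct ones. The same record uc002bxt stood on 2 more probe sets, which were within 2-fold, with 10.7 and 6.40 (1.68-fold lower) and with 17.2 and 9.86 (1.74-fold lower). The brightest UCSC record, uc002npn, had 898 and 738.

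The rows of the RefSeq genomic record NC_001807 were bright. None of the 31 detected passed 2-fold, where 3.96% of the whole array were higher and 4.75% lower. So few rows say little about shares of that size. The 31 rows held 24 distinct measurements, with control intensities from 3.87 to 6978 and a median of 287 over all 31. Of the 24, 18 were higher with LBH589 and 6 lower, and their folds of LBH589 over control ran from 0.791 to 1.49. They all come from the same record and are not counted as independent. The brightest had 6978 and 7221, and the next, 2 rows with identical values, 6582 and 6748. Of the model transcripts, XR_038272 had 11.5 and 8.02, 1.43-fold lower, and the XM row was not detected.

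Some of the rows are not independent measurements. The 6470 rows with an accession held 6286 different accession entries, of which 111 stood on more than 1 probe set. For 71 of these 111, all probe sets had identical intensities on both arrays. Over all 11234 rows, 358 shared both intensities exactly with another, in 147 groups, which left 11023 distinct measurements with 156 higher and 391 lower. Where probe sets of an accession other than NC_001807 differed and were above background, in 5 accessions, their log2 ratios spanned a median of 0.07 and at most 0.39.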

How the data were processed

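Total RNA from AGS cells was turned into labelled cRNA with an Affymetrix one-cycle kit and hybridised, per the labels, with 1 array for each condition. The deposited table gives an intensity per probe set on a linear scale, a gene-level RMA summary per the file headers, where the submitters' processing notes name MAS5. The deposited fold is the authors' ratio of LBH589 to control intensity. The table of values by sample held the same intensities and fixed which column was which. The array design, software versions and genome build were not given in the sources used here.

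Ratios, classes by accession prefix, signal levels, exact repeats and RefSeq matches (GRCh38.p14, by microRNA name) were computed with Python 3.11.15, numpy 2.4.6 and pandas 2.3.3; figures used matplotlib 3.10.9. Calling was tested on simulated data, with large changes placed only in rows well above the floor. That test did not cover dim rows or changes near 2-fold, and does not vouch for such calls. Named rows are, per accession prefix, up to 5 increases and 5 decreases past 2-fold with a brighter array of at least 6.42 (the median of detected intensities) and the 3 brightest; prefixes without a call and with dim rows are summarised. Naming by RNA kind in the description was void, as no description was filled. The rule for members reads the symbol column alone, but that rule, and the lists and thresholds, were chosen with earlier results of these data known. With 1 array per condition no test was possible. The full count of immune markers is not reported here.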

Additional observations from a re-analysis of the deposited data

How the results depend on the processing

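The number of arrays limits precision, and most rows lay near background. Quantile normalization and centring of the arrays kept all 36 named rows past 2-fold on the same side of it, and moved the share of higher among all calls from 28.6% to 31.0% and 30.5%. Of these 36, 2 fell short of 2-fold when the floor was set at background, 22 at a floor of 16 and 32 after adding 50. A floor or an added constant can shrink a log2 ratio, in some rows to 0.00 at a floor of 16, but cannot reverse it. Centring shifted the ratios by about the same small amount, such as that of hsa-mir-27b from -1.94 to -1.92, so it could not reverse a row past 2-fold either. Direction could change only under quantile normalization, and there it did not. With a floor of 16, rows without a symbol numbered 63 higher and 131 lower, and with 50 added 17 and 47. With a symbol, 669 and 651 of 8363 detected were higher and lower at that floor, and 158 and 149 of 20392 with 50 added. The whole-array share in these 2 settings is not given here, for these counts or for those by class below. At 1.5-fold they numbered 463 and 913, and at 3-fold 41 and 108, sizes at which the whole-array share is not given here. Without rows that lack an accession, 19 were higher and 26 lower. With both arrays above background, a setting added after the data were seen, 106 of 3271 were higher and 234 lower, beside 971 and 1135 of 15944 over the whole array. Rows with no accession, in that order of higher and lower, numbered 138 and 366, then 59 and 126 with a floor of 16 and 16 and 47 with 50 added. Ensembl transcripts numbered 1 and 4 with the floor of 16 and 1 and 0 with 50 added. Other accessions, 8 and 8 in the settings used above, numbered 3 and 1, then 0 and 0. The low-number run numbered 54 and 120, then 14 and 44, and its median log2 ratio was -0.02 with 50 added. In those 2 settings the lower numbers follow from the construction, since both shrink the ratios of dim rows. The series value table was not run as an alternative, as it held the same intensities. No paired analysis was possible because each condition had 1 array, and for the same reason no array could be left out.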

Other observations

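Some control intensities recurred exactly on the other array. Of the 892 rows of the low-number run with a mean intensity from background to 16, 32 (3.59%) had a control intensity that occurs, to all deposited digits, somewhere on the LBH589 array. The share was 1.24% of 5707 probe sets with a symbol and 1.71% of 584 Ensembl transcripts at that level. From 16 to 128 it was 1.89% in the run, 0.870% with a symbol and 1.97% of Ensembl transcripts. Below the floor it was 25.5%, 10.2% and 16.6% in the same order, and at 128 and over it was 0.225%, 0.0730% and 0 of 52.

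The log2 intensities of both arrays correlated across the 11234 probe sets without a symbol with a Pearson r of 0.981, and across those with a symbol with an r of 0.953. Probe sets are not independent replicates, and the wide range of levels within each array sets much of such an r.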
